A study of Mus musculus with 3 samples.

Results

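The genes described here are the mouse zinc finger protein genes that lie in clusters. A gene was included when it was an autosomal protein-coding gene of GENCODE vM21 with a symbol made of Zfp and a number, and when its transcription start site (TSS) lay within 200 kb of the TSSs of at least 2 other such genes. By this rule 170 genes were members, of 358 autosomal Zfp genes with a number and of 20807 autosomal protein-coding genes. The members fell into 29 clusters on 14 chromosomes when members with TSSs up to 200 kb apart were joined. Of these clusters 27 held at least 3 members and 2 held 1 member each, whose neighbors were Zfp genes that did not themselves meet the rule. Chromosome 7 alone held 67 of the members. The rule itself uses only names and positions of genes.

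HBO1 (KAT7, MYST2) was immunoprecipitated from mouse embryonic stem cells (ESCs) deficient in Oct1, the POU factor encoded by Pou2f1. The series held 2 HBO1 ChIP samples and 1 input sample, all of Oct1 deficient ESCs. These cells were grown with a MEK inhibitor at 1 µM, the GSK3 inhibitor CHIR99021 at 3 µM and ascorbic acid. They were fixed in 1% formaldehyde for 10 min. The labels write the MEK inhibitor as PD03259010, and the methods write it as PD0325901. The methods also name LIF. For 1 ChIP sample the antibody is labelled HBO2. Since title and methods both give HBO1, the sample was taken as HBO1. The labels name no strain or clone, and no Oct1-proficient or untreated group was analysed here. The title of a peak list supplied with the study names WT ESCs instead, while labels and methods say Oct1 deficient. The cells had been grown on feeder cells that were depleted before use. RNA was not measured, so the cell type was not checked against marker levels. The deposited peak list combined the ChIP samples into 13823 peaks. There were therefore no replicate values, no test between conditions could be made, and the intervals given below are 95% intervals that cover counting error only.

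HBO1 is the catalytic subunit of a MYST family complex that acetylates histones H3 and H4, and it is known from the starts of active genes. Most clustered Zfp genes encode DNA-binding proteins with an array of C2H2 zinc fingers, and many of these also carry an N-terminal KRAB domain. KRAB zinc finger proteins bind transposable elements and other targets and recruit the corepressor Trim28 (KAP1), which brings in the H3K9 methyltransferase Setdb1 and heterochromatin proteins. The genes themselves arose by repeated tandem duplication, so their sequences resemble each other, and the exons that encode the finger arrays are known in other cell types for carrying repressive H3K9 methylation.

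The start peaks of members on distal chromosome 4 lay at a start region shared by Zfp genes there. The stretch just upstream of the TSS is shown for 8 of the 10 chromosome 4 members with an HBO1 peak at the start. Zfp981 and Zfp984 are not shown, and Zfp534, which had no start peak, comes last. Capitals mark the 49 bases that were identical in all 9 genes in a multiple alignment.
Zfp991: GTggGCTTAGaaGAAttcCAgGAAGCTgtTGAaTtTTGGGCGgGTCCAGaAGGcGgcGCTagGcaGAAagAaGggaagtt
Zfp978: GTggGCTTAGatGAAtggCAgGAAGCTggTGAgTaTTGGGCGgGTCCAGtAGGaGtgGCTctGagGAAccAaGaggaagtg
Zfp979: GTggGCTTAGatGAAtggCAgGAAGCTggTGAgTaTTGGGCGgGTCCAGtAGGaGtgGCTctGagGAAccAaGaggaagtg
Zfp993: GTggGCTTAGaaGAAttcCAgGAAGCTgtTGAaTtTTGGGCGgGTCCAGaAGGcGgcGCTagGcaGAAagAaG
Zfp982: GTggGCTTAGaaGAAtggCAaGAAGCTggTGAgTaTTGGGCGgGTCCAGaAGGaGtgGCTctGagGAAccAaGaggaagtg
Zfp988: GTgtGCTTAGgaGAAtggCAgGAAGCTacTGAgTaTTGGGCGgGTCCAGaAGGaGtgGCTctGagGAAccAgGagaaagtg
Zfp985: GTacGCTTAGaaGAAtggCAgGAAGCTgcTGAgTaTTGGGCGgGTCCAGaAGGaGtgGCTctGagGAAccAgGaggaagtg
Zfp980: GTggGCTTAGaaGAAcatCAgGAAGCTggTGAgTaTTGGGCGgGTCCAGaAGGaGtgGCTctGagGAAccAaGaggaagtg
Zfp534: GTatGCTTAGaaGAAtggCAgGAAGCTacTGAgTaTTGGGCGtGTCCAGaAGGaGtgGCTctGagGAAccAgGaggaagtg
In mm10 these stretches lie upstream of the genes and outside annotated exons, with Zfp991 at chr4:147131949-147132028 (plus strand), Zfp978 at chr4:147361201-147361281 (plus strand), Zfp979 at chr4:147642535-147642615 (minus strand), Zfp993 at chr4:146610888-146610960 (plus strand), Zfp982 at chr4:147492300-147492380 (plus strand), Zfp988 at chr4:147305524-147305604 (plus strand), Zfp985 at chr4:147553175-147553255 (plus strand), Zfp980 at chr4:145670590-145670670 (plus strand) and Zfp534 at chr4:147702623-147702703 (minus strand). A peak overlapped the stretch in each of the first 8, though at Zfp982 only at its end, where the peak began at 147492379. Those 8 hold the letters GGGCGG, the core of a GC box, and Zfp534 does not. At Zfp982, Zfp993, Zfp985 and Zfp980 these letters lay wholly outside the peak, and all 8 summits lay downstream of a TSS. Zfp988 and Zfp534 differ at 4 of 81 positions, counted from 1 at the 5′ end of the Zfp988 sequence, namely G3A, G11A, G43T and A76G. The letters GGGCGG span positions 38 to 43 of Zfp988, so that G43T removes them. Whether this bears on the peak was not tested. Of the copies described below with at least 390 aligned bases and 80% identity, 16 of 22 without a peak also held GGGCGG. Zfp534 also had only 2 input read ends around its TSS. For comparison, the 100 bases before the outermost TSS are shown for 3 members elsewhere that had a start peak, with CpG dinucleotides in capitals.
Zfp459: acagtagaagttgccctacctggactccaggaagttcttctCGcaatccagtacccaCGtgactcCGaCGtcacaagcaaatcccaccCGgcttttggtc
Zfp568: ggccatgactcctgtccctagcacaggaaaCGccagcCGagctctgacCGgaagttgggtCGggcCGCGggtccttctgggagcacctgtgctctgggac
Zfp746: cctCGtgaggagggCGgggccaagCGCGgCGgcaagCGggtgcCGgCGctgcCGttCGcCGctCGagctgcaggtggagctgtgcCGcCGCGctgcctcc
These lie outside annotated exons with Zfp459 at chr13:67421419-67421518 (minus strand), Zfp568 at chr7:29983855-29983954 (plus strand) and Zfp746 at chr6:48086594-48086693 (minus strand). They hold 5, 6 and 15 CpG dinucleotides. The Zfp746 stretch also holds GGGCGG, and its start peak did not overlap the stretch shown, whereas those of Zfp459 and Zfp568 did. Zfp568 encodes a KRAB zinc finger protein known as a repressor of a placental Igf2 transcript, and Zfp746 encodes PARIS, known as a repressor of the gene for PGC-1α.

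An HBO1 peak lay within 1 kb of an annotated TSS of 36 of the 170 members, or 21.2% (15.3 to 28.1%). The background was 22.5% of all autosomal coding genes, and the share in members was 0.939 times that in the other 20637 coding genes (0.702 to 1.26). The interval includes 1, so no difference between clustered Zfp genes and other genes was detectable in the total. The total joined parts that differed. Of the 13 members on chromosome 4, 10 had a start peak, or 76.9% (46.2 to 95%), against 26 of 157 members on other chromosomes, or 16.6% (11.1 to 23.3%). These intervals do not overlap, but they treat genes as independent. Most chromosome 4 starts were copies of a shared sequence, and the split by chromosome was chosen after seeing the data. With peaks of a −log10 q of at least 10 only, the ratio to other genes was 1.57 (1.06 to 2.33) over all members and 1.00 (0.593 to 1.69) without those on chromosome 4, so the chromosome 4 members set the direction. The 188 autosomal Zfp genes with a number that did not meet the rule had start peaks at 75, or 39.9% (32.8 to 47.3%), which is above the interval of the clustered genes. Among these 188 genes 6 lay within 200 kb of a member, 3 of them with a start peak, and the remaining 182 had start peaks at 72, or 39.6% (32.4 to 47.1%). The plot of shares by place shows these groups side by side.

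**Figure D1:**
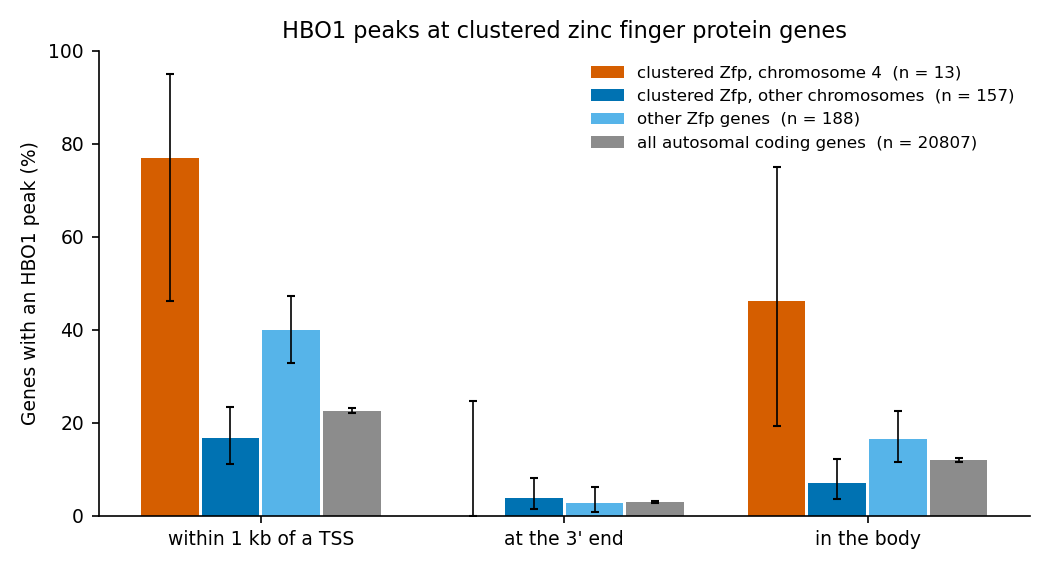
Share of genes with an HBO1 peak (%) within 1 kb of a TSS, at the 3' end and in the gene body, for clustered Zfp genes on chromosome 4 and on other chromosomes, other Zfp genes and all autosomal coding genes; bars are shares and lines exact 95% binomial intervals. At starts the chromosome 4 members stand at 76.9% and the members on other chromosomes at 16.6%, below the other Zfp genes at 39.9%.

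The 13 members on chromosome 4 fell into 3 clusters between Zfp980 and Zfp933. Their start peaks had fold enrichments from 3.37 to 15.4, where fold enrichment is the authors' ratio of ChIP signal over the local background at the peak summit. Zfp991 had the highest value of all members, 15.4, with a −log10 q of 57.8. Enrichment at Zfp978 was 12-fold (−log10 q 37) and at Zfp979 9.89-fold (−log10 q 36.5). Their TSSs lie on opposite strands, and over 500 bases around the TSS their sequences were 99.8% identical by edit distance. Zfp993 followed at 9.35-fold (−log10 q 49.3), and its start was 93.6% identical to that of Zfp991. In rank by fold enrichment among the 4927 peaks at starts of autosomal coding genes, Zfp991, Zfp978, Zfp979 and Zfp993 stood at 6, 10, 22 and 29. These 4 starts thus came in 2 closely related pairs with the highest enrichment among start peaks of members.

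Lower values were found at the remaining chromosome 4 starts. Fold enrichment was 7.41 at Zfp982, 6.59 at Zfp988, 6.5 at Zfp985, 6.3 at Zfp981 and 6.29 at Zfp980. The corresponding −log10 q values ran from 7.86 at Zfp980 to 17.2 at Zfp988. Zfp984 had the lowest fold enrichment, 3.37, with a −log10 q of 17.4, and also the most input, with 63 input read ends near the summit. At Zfp981 the peak did not lie at the outermost TSS but at an annotated TSS 12893 bases downstream. In 9 of the 10 genes a TSS lay inside the peak, and in all 10 the summit lay downstream of the nearest TSS, at a median of 112 bases. Summits fell in a noncoding part of an exon at 7 starts and in an intron at 3. None of the 10 peaks had over 50% of its bases soft-masked as repeats.

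The start peaks of members on chromosome 4 lay on copies of a duplicated sequence, though 36 of 60 copies had no peak. The 400 bases around the TSS of Zfp978, from 100 before to 299 after it, were searched against the autosomes. On chromosome 4 the search found 60 copies with at least 200 aligned bases, between positions 145367409 and 147809905. A peak overlapped 24 of these copies, and their fold enrichments ran from 3.37 to 22.6 with a median of 9.62. Of the 13 copies at starts of members, 10 had a peak, and each of the 10 members with a start peak held its peak on a copy. Zfp981 and Zfp984 each had a further copy at another annotated TSS without a peak.

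The peaks on copies were not limited to clustered Zfp genes. Of 9 copies at starts of other coding genes 5 had a peak, among them Zfp990 (fold enrichment 18.4), Rex2 (17.4) and Zfp600 (17.1), coding genes that did not meet the rule. The highest value of any copy, 22.6, lay at the noncoding gene Gm13166. Of 35 copies without an annotated start 8 had a peak, with fold enrichments up to 18.7. Copies with a peak were more like the Zfp978 start, with a median identity of 88.7% against 81.8% in copies without. The Zfp978 start itself and that of Zfp979, both at 100% identity, count among the copies with a peak. This comparison and the classes below therefore depend on the choice of a start with a peak as the sequence searched. By class, 14 of 21 copies of at least 88% identity had a peak, against 9 of 26 copies from 80 to 88% and 1 of 13 below 80%. Identity did not separate the groups, because copies without a peak reached 91.8%.

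Copies with and without a peak also differed in input. The median number of input read ends in a copy was 6 with a peak and 1 without, and the part of this difference in the calls was not tested. The letters GGGCGG were in 22 of the 24 copies with a peak and 17 of the 36 without. Among copies of at least 390 aligned bases and 80% identity the counts were 21 of 22 with a peak and 16 of 22 without, so that most copies without a peak also held them. On the other autosomes the search gave 24 shorter matches of up to 179 bases, and 0 of them had a peak, including 2 exact matches of up to 151 bases.

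**Figure D2:**
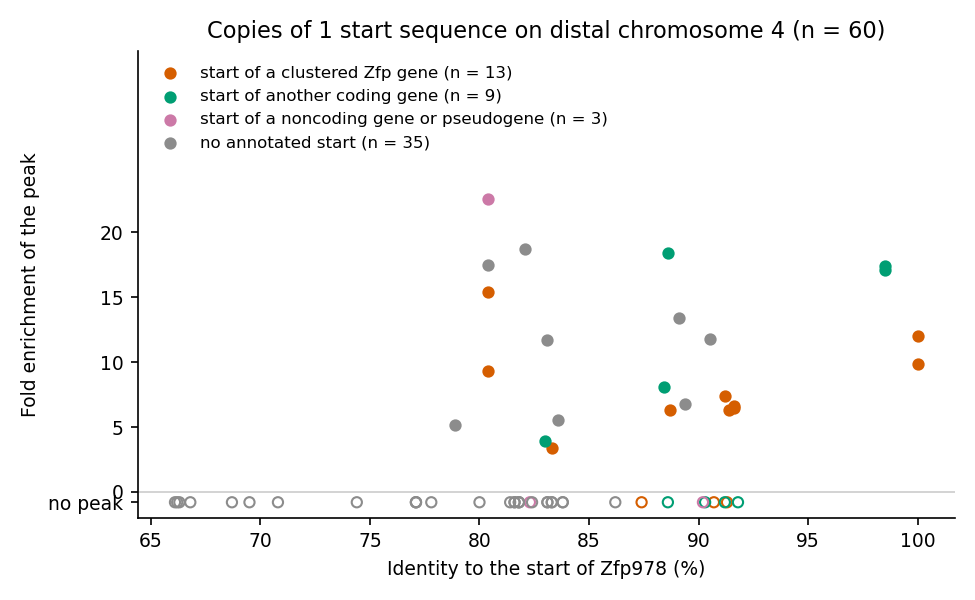
Fold enrichment of the HBO1 peak (y axis) at 60 copies of the Zfp978 start sequence on chromosome 4 against their identity to it (x axis, %); filled points had a peak, open points below 0 had none, and colors give what starts at the copy. Peaks reach 22.6 and occur on copies of members, of other genes and without annotated start, and the 2 copies at 100% identity, Zfp978 and Zfp979, stand at 12 and 9.89.

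The members of chromosome 4 without a start peak were Zfp992, Zfp933 and Zfp534. The starts of Zfp992 and Zfp933 did not belong to the copies, and their best match among members was each other, at 61%. Around the TSS they had 7 and 15 input read ends per 1 kb. Zfp534 did belong to them and was 95.8% identical to Zfp988, but its TSS had only 2 input read ends, against 12 at Zfp988. Zfp982 had a peak with the same 2 input read ends. Among chromosome 4 members with a related start (at least 75% identity to another member) 10 of 11 thus had a start peak, though that of Zfp981 lay at another TSS than the one compared. On the other chromosomes 21 members had such a related start, and 1 of them, Zfp595, had a start peak. Its related partner Zfp953 had 0 input read ends around the TSS. The background was 22.5% of all autosomal coding genes. The 2 sets also differed in GC content, 42.2 to 50.8% on chromosome 4 and 46.2 to 56.1% elsewhere. Median input was 11 and 30 read ends. The part of these differences in the counts was not tested, and the split by chromosome was chosen after seeing the data. Pairs whose TSSs lay within 500 bases of each other were not compared, since their windows overlap. The pairs Zfp977 and Zfp976 (91.2%) and Zfp995 and Zfp947 (90.8%), for example, had no start peak.

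Input over the chromosome 4 clusters differed from that at other clusters in depth and in mapping quality, the score with which the aligner rates how unique a position is. Across the span of the copies the input was 2.55 times that of autosomal windows of the same GC content, and 1.78 times when only read ends of mapping quality 20 or more were counted. At the 26 clusters on other chromosomes these values ran from 0.978 to 1.39 and from 0.995 to 1.46. Around the TSSs of chromosome 4 members 65.8% of input read ends had a mapping quality of 20 or more, against 99.4% at members elsewhere. Over whole clusters this share was 50.7, 55.4 and 70.7% on chromosome 4. The lowest value elsewhere was close, 73% in the chromosome 2 cluster from Zfp972 to Zfp931. At Zfp993 none of the 29 read ends around the TSS reached that quality, and at Zfp978 2 of 11 did. More copies in these cells than in the reference, and reads placed among near-identical copies, cannot be told apart from binding at each single gene here, and their part in the fold enrichments was not tested. When peaks were left out whose input was mostly below mapping quality 20, the start peaks of Zfp991, Zfp978, Zfp979 and Zfp993 were lost, the 4 with the highest fold enrichment. The share with a start peak was then 6 of 13 on chromosome 4, or 46.2% (19.2 to 74.9%), and 18.8% over all members. This chromosome 4 interval overlaps the 11.1 to 23.3% given above for members on other chromosomes. Such overlap does not show that the shares are alike, since the 16.6% of those members lies below the chromosome 4 interval. The difference was not tested.

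Elsewhere start peaks were scattered. Of the 26 clusters off chromosome 4, 20 had at most 1 start peak, and 11 clusters with 42 members had none. Clusters of at least 3 members held a median of only 5, and the background was 22.5% of all autosomal coding genes. Clusters with few or no start peaks were thus not shown to differ from other genes. The largest cluster, Zfp712 to Zfp273 on chromosome 13 with 19 members, had start peaks at Zfp455, Zfp595, Zfp459, Zfp748 and Zfp65. Fold enrichments there were 6.78, 6.01, 7.39, 3.15 and 3.63. Their summits lay 125 to 179 bases downstream of a TSS, and 7 to 30 input read ends surrounded them. Zfp459 thus had the highest enrichment of any start peak of a member off chromosome 4, with a −log10 q of 24.8.

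On chromosome 7 start peaks were found at 12 of 67 members, beside the background of 22.5%. The cluster from Zfp84 to Zfp146 held 15 members, of which Zfp568 had the peak with the highest −log10 q off chromosome 4, 28.1, at a fold enrichment of 4.33 with 74 input read ends. In the same cluster Zfp82 and Zfp260 had start peaks with low −log10 q of 2.49 and 4.69. The summit of the Zfp260 peak lay upstream, at -633 bases from the nearest TSS. Zfp689 in another chromosome 7 cluster had a −log10 q of 3.99 and the lowest fold enrichment of any member, 1.98. These 3 start peaks were the closest to the threshold of the peak list. On chromosome 17 the clusters of 13, 8 and 5 members had 1, 1 and 0 start peaks, at Zfp229 (fold enrichment 5.04) and Zfp763 (5.53). Zfp24, a gene known for its part in myelination, had a start peak at 4.34.

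**Figure D3:**
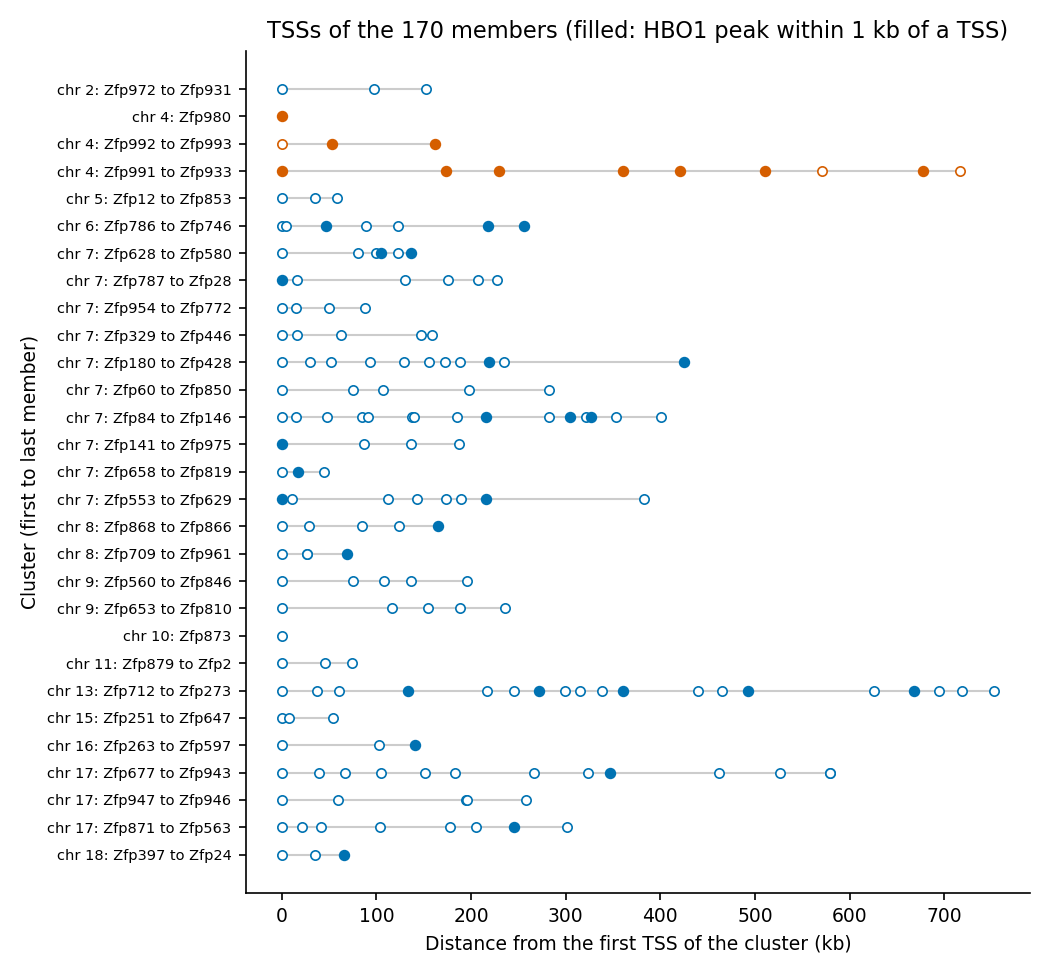
Position of the TSS of each of the 170 members as distance from the first TSS of its cluster (x axis, kb), with the 29 clusters as rows; filled points had an HBO1 peak within 1 kb of a TSS. In the chromosome 4 cluster from Zfp991 to Zfp933 7 of 9 points are filled, and in the chromosome 13 cluster from Zfp712 to Zfp273 5 of 19.

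Some start peaks could not be assigned to a member alone. At 10 of the 36 start peaks another gene had a TSS within 1 kb of the peak, 2 of them on chromosome 4. These included Atp13a1 beside Zfp866, Naa60 beside Zfp597 and Sept1 beside Zfp553. Off chromosome 4 the summit lay downstream of the nearest TSS at 22 of 26 start peaks, or 84.6% (65.1 to 95.6%), and it did so at 70.4% of pairs of peak and gene for other coding genes.

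The start peaks of members had a higher median fold enrichment than those of other genes, and lower input. The 36 peaks had a median fold enrichment of 4.15 (3.15 to 6.06), against 2.62 (2.59 to 2.64) over 4895 peaks at starts of other coding genes. The median was 7 on chromosome 4 (6.29 to 12) and 3.5 elsewhere, with an interval of 2.42 to 4.34 that includes the value of other genes. Off chromosome 4 10 start peaks of members lay below the median of other genes. Median input around the summit was 36.5 read ends at members and 84 at other genes. Because fold enrichment is a ratio to background, the values were compared within classes of input. With up to 15 input read ends the median fold enrichment was 7 at chromosome 4 members (8 peaks), 6.4 at other members (4 peaks) and 5.18 at other coding genes (539 peaks). From 41 to 80 read ends it was 3.74 at members off chromosome 4 (8 peaks) and 2.66 at other genes (1315 peaks), and above 80 read ends 2.39 (8 peaks) and 2.36 (2592 peaks). From 16 to 40 read ends it was 4.34 at members off chromosome 4 (6 peaks) and 3.55 at other genes (445 peaks). The single chromosome 4 peaks in the classes of 16 to 40 and 41 to 80 stood at 9.35 and 3.37. The difference was thus small only above 80 read ends. Among the 100 start peaks of highest fold enrichment 6 were at members, 5 of them on chromosome 4.

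**Figure D4:**
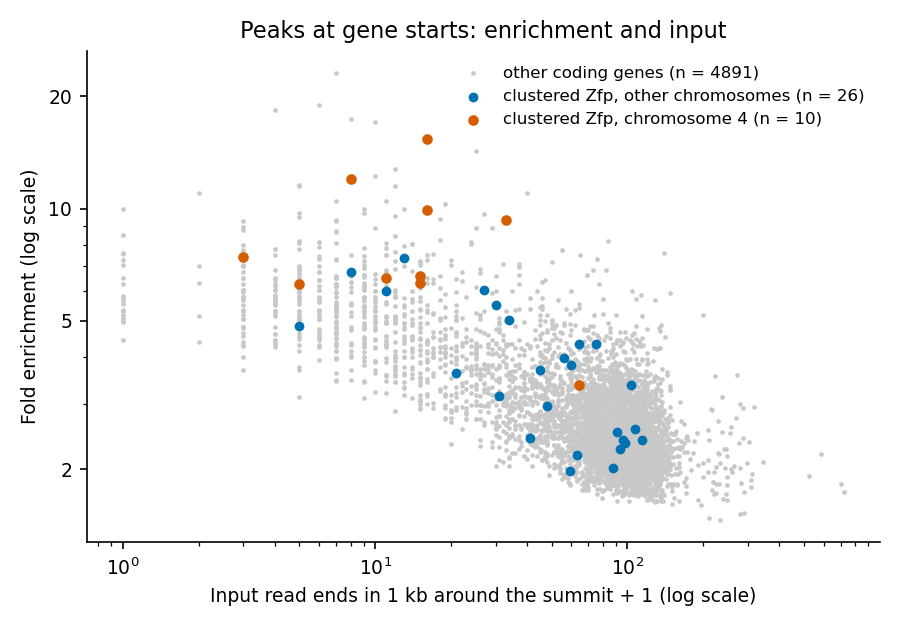
Fold enrichment of peaks at starts of autosomal coding genes (y axis, log scale) against input read ends per 1 kb window centered on the summit, plus 1 (x axis, log scale); each point is 1 peak. Fold enrichment falls as input rises, and the 10 chromosome 4 members lie at 3.37 to 15.4 with 2 to 63 input read ends.

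Input depth around the TSS was lower at members than at other genes as a whole. The median was 40 read ends in 1 kb (33 to 45) over 170 members and 50 (49 to 51) over the other coding genes, and it was 11 at the 13 chromosome 4 members and 42 elsewhere. Zfp397 and Zfp768 had the most, with 126 and 124 read ends, and neither had a start peak. Zfp647 and Zfp787 followed with 114 each, of which Zfp787 had a start peak (fold enrichment 2.35) and Zfp647 had none. No input read end was found around the TSSs of Zfp972, Zfp759 and Zfp953, which also had no start peak. Since input was counted at the outermost TSS, members were split by a peak within 1 kb of it. The median was 12 with a peak and 7 without on chromosome 4, and 53.5 and 40 elsewhere. Over all members it was 41 with a peak and 40 without, and at other coding genes 81 and 39.

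Start peaks are more common at GC-rich starts across the genome, so members were compared with other genes of like GC content. In deciles of GC content of the 1 kb around the outermost TSS, the share with a start peak among other coding genes rose from 1.57% in the lowest to 55% in the highest. Members had a lower median GC content than all coding genes, 52.3% against 55.1%. At 5 of the 36 members with a start peak the peak lay only at another TSS than the outermost. The lowest decile held only 1 member, which had a start peak. In the deciles 2 and 3 a start peak was found at 17 of 51 members, or 33.3% (20.8 to 47.9%), against 9.07% of other genes. Off chromosome 4 it was 8 of 39, or 20.5% (9.3 to 36.5%), an interval whose lower end lies just above the value of other genes. In the deciles from 4 to 7 the order was the opposite, with 9 of 98 members, or 9.18% (4.29 to 16.7%), against 20.4%. In the deciles from 8 to 10 members stood at 9 of 20, or 45% (23.1 to 68.5%), and other genes at 41.6%. Other coding genes with the GC content of the chromosome 4 members would have had start peaks at 8.64%, and those with the GC content of the other members at 19.3%. The observed 76.9% was thus far above, and the observed 16.6% had an interval that includes the value from GC content.

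**Figure D5:**
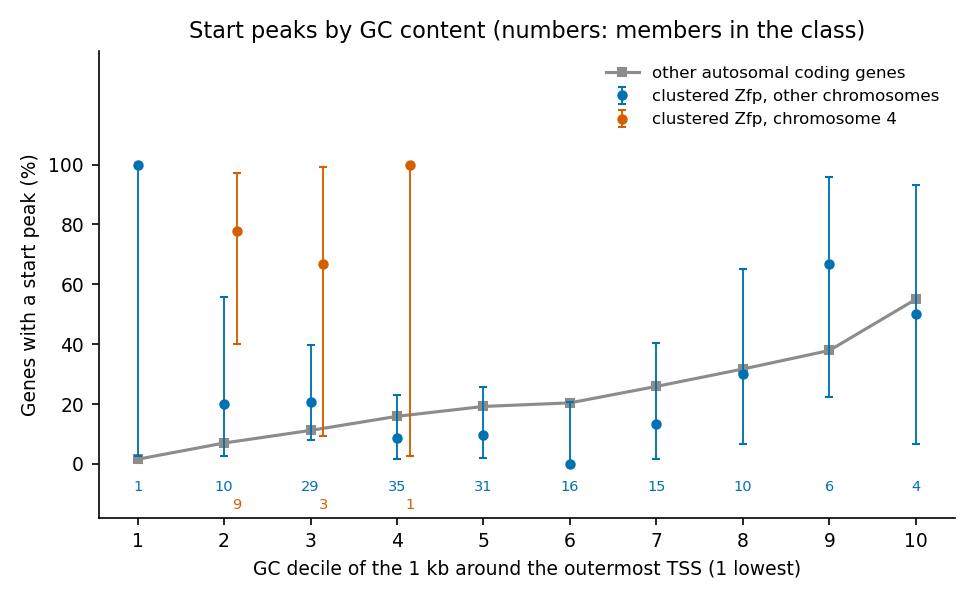
Share of genes with a start peak (%, y axis) by decile of GC content around the outermost TSS (x axis, 1 lowest) for other autosomal coding genes (line) and clustered Zfp genes on chromosome 4 and on other chromosomes (points with exact 95% binomial intervals); small numbers give the members in each class. The line rises from 1.57% to 55%, while chromosome 4 members lie above it at low GC content.

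At the 3' end, meaning within 1 kb of the end of the gene and not within 1 kb of a TSS, 6 of 170 members had a peak, or 3.53% (1.31 to 7.52%). The background was 3.01% of autosomal coding genes. None of the 13 chromosome 4 members was among the 6 (interval 0 to 24.7%). Fold enrichments were 5.3 at Zfp568 and Zfp382, 5.05 at Zfp109, 4.81 at Zfp773, 2.59 at Zfp771 and 2.15 at Zfp628. The summits fell in a coding exon in 4 of the 6 genes, Zfp628, Zfp109, Zfp382 and Zfp771. At Zfp628 the peak also lay within 1 kb of the start of Nat14. Support was weak at most, since −log10 q was 3.01 to 5.32 in all but Zfp771, where it was 10.6 with 123 input read ends around the summit. The peaks at Zfp773, Zfp109, Zfp568 and Zfp382 had 0 to 6 input read ends.

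The last coding exon, which in these genes usually encodes the finger array, overlapped a peak in 8 members, or 4.71% (2.05 to 9.06%), against 2.50% (2.29 to 2.72%) of other coding genes. The 8 genes were Zfp628, Zfp180, Zfp109, Zfp27, Zfp382, Zfp553, Zfp771 and Zfp7, none of them on chromosome 4. The interval of the members includes the share of the other genes.

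In the gene body, away from any TSS of the gene and from its 3' end, 17 members had a peak, or 10.0% (5.93 to 15.5%), and the background was 12%. The share rose with gene length in both groups. Among members the classes above 20 kb held all 6 chromosome 4 genes with a body peak, so length was not separated from chromosome 4 there. Among genes of 10 to 20 kb it was 4 of 75 members, or 5.33%, and 6.61% of other genes, and among genes of 20 to 40 kb 8 of 56, or 14.3%, and 12.1%. Above 40 kb it was 4 of 7 members, or 57.1%, and 28.5%, and below 10 kb 1 of 32, or 3.12%, and 1.42%. On chromosome 4 6 of 13 members had a body peak, or 46.2% (19.2 to 74.9%), against 11 of 157 elsewhere, or 7.01% (3.55 to 12.2%). Without peaks whose input was mostly below mapping quality 20, the body share over all members was 6.47% (3.27 to 11.3%). Among chromosome 4 members only Zfp992 then kept body peaks. Median gene length was 30.6 kb on chromosome 4 and 14.9 kb elsewhere.

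The 11 body peaks on chromosome 4 all lay in introns, and several came as duplicates. Of the 11, 4 had over 50% of their bases soft-masked as repeats, 2 in Zfp978 (70.3 and 100%) and 2 in Zfp979 (71.6 and 100%), at the first 2 positions of each gene given next. Zfp978 had 3 body peaks with summits 8439, 10781 and 12895 bases downstream of the nearest TSS and fold enrichments of 5.88, 7.14 and 12. In its near-identical partner Zfp979 the summits lay 8435, 10801 and 12888 bases downstream, with 8.27, 7.22 and 11.3. None of the 2 to 28 input read ends around each of these 6 summits had a mapping quality of 20 or more, so peaks of the 2 genes cannot be told apart from reads shared between them. The highest body peak, 13.4 in Zfp988, overlapped a further copy of the start sequence 4984 bases downstream of the TSS. Single body peaks were found in Zfp991 (10.5) and Zfp993 (9.57), and Zfp992, which had no start peak, had 2 (6.79 and 5.42). Only 21.8% of the input read ends around the 11 summits had a mapping quality of 20 or more.

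Off chromosome 4 there were 13 body peaks in 11 genes, with 5 summits in coding exons, 1 in a noncoding exon part and 7 in introns. The highest fold enrichments were 7.63 in Zfp568, 6.5 in Zfp976, 6.04 in Zfp940 and 6 in Zfp7, which had a second body peak in a coding exon (5.18). Zfp568 was the only member with a peak at the start, at the 3' end and in the body. Other body peaks lay in Zfp943 (5.14), Zfp27 (4.26), Zfp180 (3.19), Zfp457 (3.14), Zfp771 (2.62), Zfp553 (2.29 and 2.18) and Zfp52 (2.07). The peaks of Zfp976 and Zfp52 had over 50% of their bases soft-masked as repeats.

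Neither the number of finger patterns nor a KRAB sequence pattern separated members with a start peak from those without. At least 1 C2H2 finger pattern was found in 169 of the 170 longest annotated proteins. The median number of fingers was 10 with a start peak (range 1 to 23) and 12 without (0 to 22). A sequence pattern of the KRAB A box was found in 105 members, of which 22 had a start peak, or 21% (13.6 to 30%). Of the 65 without the pattern 14 had a start peak, or 21.5% (12.3 to 33.5%). How many KRAB domains the pattern misses was not measured, so the 65 may include KRAB proteins. The counts therefore do not show whether the KRAB domain itself goes with start peaks. On chromosome 4 the counts were 7 of 9 with the pattern and 3 of 4 without. Off chromosome 4 15 of 96 members with the pattern had a start peak, or 15.6%.

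Sequence motifs were searched on both strands over 300 bases, starting 250 bases before the outermost TSS. Members were therefore split by a peak within 1 kb of that TSS, which 31 had and 139 did not. The start peaks of Zfp981, Zfp61, Zfp260, Zfp65 and Zfp229 lay only at other TSSs, so these 5 count among the 139. This split was chosen after seeing the data. The octamer ATGCAAAT, the site bound by POU factors, was in the promoter of 1 of 31 members with a peak, Zfp428, and 2 of 139 without, against 1.59% of 20807 promoters. The MORE, the palindromic POU dimer site made of the letters ATGCAT written in tandem, was searched with up to 1 mismatch. It was in none of the 170 promoters and in 0.0961% of all promoters. GGGCGG was in 17 of 31 promoters with a peak, 43 of 139 without and 43.7% of all. On chromosome 4 it was in 9 of 9 with a peak and 1 of 4 without, that of Zfp981, and elsewhere in 8 of 22 with a peak (36.4%) and 42 of 135 without (31.1%). CCAAT was in 13 of 31, 65 of 139 and 38.6%, and off chromosome 4 in 6 of 22 with a peak (27.3%) and 62 of 135 without (45.9%).

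CCGGAAG, the core of ETS factor sites, was in 7 of 31 promoters with a peak (22.6%), 27 of 139 without (19.4%) and 11% of all promoters. None of these 7 was on chromosome 4. Off chromosome 4 it was in 7 of 22 with a peak and 26 of 135 without. AAGATGGC, the core of the YY1 site, was in 1 of 31 (3.23%), 8 of 139 (5.76%) and 2.93%. These counts are small and were not tested. The ratio of observed to expected CpG around the outermost TSS had a median of 0.266 (range 0.154 to 0.307) at the 9 chromosome 4 members with a peak there and 0.216 at the 4 without. Elsewhere it was 0.706 with a peak and 0.555 without, and over all coding genes 0.569.

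Genes of the corepressor pathway that acts with KRAB zinc finger proteins were examined as a group, of which 10 of 15 had a start peak. The background of 22.5% covers autosomes and was not matched for GC content. Of the 14 autosomal genes, all but Atrx, 9 had a start peak. Trim28, the adaptor bound by the KRAB domain, had the highest fold enrichment, 7.25, at 3 input read ends around the TSS. Uhrf1, which directs maintenance DNA methylation, followed at 4.31, and Pphln1, a subunit of the HUSH complex, at 3.49. Atrx and Daxx, which deposit histone H3.3 in heterochromatin, had 3.09 and 2.3. Morc3 had 2.61, the HUSH subunit Fam208a 2.42, the methyltransferase Setdb1 2.35, and the heterochromatin proteins Cbx3 and Cbx1 2.12 and 1.89. No start peak was listed for Atf7ip, Cbx5, Smarcad1, Mphosph8 or Dnmt1. Trim28 thus had a start peak of higher fold enrichment than the median of the members' start peaks, 4.15, though at low input. Trim28 and Uhrf1 had 3 start peaks each and Cbx3 had 2, and 1 fold enrichment is given per gene.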

How the data were processed

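HBO1 ChIP-seq of Oct1 deficient ESCs comprised 2 ChIP samples and 1 input. Paired reads were mapped by the authors on mm10 (Novoalign 4.03.01), and they called peaks with MACS2 (q 0.005, max-gap 100); how the ChIP samples were combined, and whether multimapped or duplicate reads were removed, is not given in the sources used here. The deposited peak list gives a fold enrichment, the authors' ratio over local background, a −log10 q from their caller, and the summit. The deposited input lists 31973678 read ends with the mapping quality score of the authors' aligner, with no normalization.

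Peaks were assigned to GENCODE vM21 genes in the order start, 3' end and body, with distances from the peak edge. Input read ends were counted by midpoint in 1 kb. Shares have exact Clopper-Pearson intervals, ratios log intervals and medians order-statistic intervals. Copies were found with BLAST+ 2.17.0 (blastn, expectation 1e-05), aligned with MAFFT 7.526, and counted by the limits stated, which were chosen after seeing the data. Printed sequences were read from the RefSeq genome of GRCm38, the build of mm10. KRAB and finger patterns were matched in translated GENCODE coding sequences. Input relative to autosomal windows used 2% GC classes of all autosomes except chromosome 3, from 30 to 65% GC, with at most 200 read ends. Computation used pandas 2.3.3, scipy 1.17.1 and numpy 2.4.6 under Python 3.11.15. The assignment and the copy search were checked on simulated data. The planted copies were ungapped and of full length, so this check does not cover gapped or the most diverged copies. Named were the 10 highest start peaks by fold enrichment, the 3 lowest by −log10 q, members with 3' end or body peaks, members without a start peak in the cluster with the highest share, the 3 with most input and 1 tied with the last, and the listed corepressors; the remaining names were chosen after their values were seen. The members and lists were chosen with earlier results of these data known.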

Additional observations from a re-analysis of the deposited data

How the results depend on the processing

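No paired analysis was possible because the deposited list pools the ChIP samples, and for the same reason no sample could be left out. Of 60 values under other settings for the 6 results on shares, enrichment and input, 50 lay within the 95% interval of the value reported and 10 lay outside it. A change of direction could not be counted, since the interval of the reported ratio included 1 and no direction had been called. With a −log10 q of at least 10 the share of members with a start peak was 12.9%, with a 3' end peak 0.588% and with a body peak 4.71%, and the start share was 1.57 times that of other genes (interval 1.06 to 2.33), above 1 instead of at 0.939. The chromosome 4 members made this difference: without them the start share was 8.28% and the ratio 1.00. Without peaks of over 10 input read ends the start share was 4.12%, the body share 5.88% and the ratio 2.34, and without the chromosome 4 members as well the start share was 1.91% and the ratio 1.08. When body peaks were also counted within 1 kb of a TSS the body share was 25.9%. Settings that left out chromosome 4 members or peaks of low mapping quality were chosen after seeing the data. Without the chromosome 4 members alone the ratio was 0.733 (0.516 to 1.04) and the median fold enrichment 3.5. The median of 40 input read ends at TSSs limits what the list can show: a member without a peak, above all one at 0 to 2 read ends, is not shown to lack HBO1.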

Other observations

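Distal chromosome 4 held further peaks beside those at Zfp starts. In the 2.44 Mb that hold the copies of the start sequence there were 99 peaks, or 40.5 per Mb, against 5.44 per Mb over all autosomes. Clusters of members on other chromosomes ran from 0 to 54.2 per Mb, the highest with 4 peaks in 73.8 kb (Zfp251 to Zfp647). When peaks were joined whose central 200 bases matched another peak with at most 40 differences, 71 of the 99 fell into 15 groups of 2 or more, and 28 stood alone. The group of 24 peaks was that of the start sequence. Another 6 peaks formed a group away from any TSS, with fold enrichments from 5.66 to 12 and 5.41% of their input read ends at a mapping quality of 20 or more. In a second group of 6 peaks away from any TSS, with a median of 100% of bases soft-masked, fold enrichments ran from 3.98 to 11.2 at 20 to 35 input read ends, 39.8% of them at that quality. A further 6 peaks lay at starts of processed pseudogenes, with fold enrichments of only 1.90 to 3.13 at 83 to 330 input read ends. Enrichment and input thus differed between groups of duplicated peaks in the same region, and the limits that define the groups were chosen after seeing the data.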
